A study of Mus musculus with 12 samples.

Results

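Immediate early genes and the feedback genes induced with them were followed as a set of 38 genes, taken by symbol from the 35675 genes to which the deposited transcripts were summed. The set held transcription factors of the FOS, JUN, ATF, MAF, EGR, NR4A and KLF families, the IER genes, and inhibitors of mRNA stability, MAP kinases and NF-kB, and 36 of the 38 genes had enough counts to be tested. RNA came from spinal cord cells of 10-day-old mice, freed with enzymes and sorted for the tdTomato reporter and large forward scatter, a population enriched in oligodendrocytes, the myelin-forming cells. Each of the 12 libraries was made from 1 mouse, with 4 mice per group. The control mice were CnpCre:Rosa26-StopFlox-TdTomato, so they carried the Cre recombinase and the reporter too. The RalA cKO mice had RalAflox/flox in addition to both, and the RalAB cKO mice had RalAflox/flox and RalBflox/flox in addition to both. Cre was driven from Cnp, a gene active in the oligodendrocyte lineage. The deleted genes encode Ral proteins, GTP-binding switches related to Ras.

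Immediate early genes are transcribed within minutes of a stimulus from promoters that are already primed, without new protein synthesis. Serum response factor and CREB, activated by MAP kinases, calcium or cyclic AMP, drive many of them, and their products include the FOS and JUN subunits of AP-1 and the EGR zinc finger factors. A part of the same wave shuts the signal down again: DUSP phosphatases remove the activating phosphates from MAP kinases, ZFP36 proteins direct short-lived mRNAs to decay, and IkB proteins hold NF-kB inactive. In glia these genes respond to growth factors, cytokines and injury, and they are also known to be induced while tissue is taken apart into single cells.

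The libraries held between 10.93 and 15.44 M estimated counts (1 M is 1000000). Levels are given as CPM, counts per M after TMM scaling, and differences as log2 fold changes from an edgeR quasi-likelihood fit on all 12 libraries, with p-values adjusted by the Benjamini-Hochberg method over 13456 genes and a threshold of 0.05. Rala did not pass the test in either mutant, at 35.5 to 59.3 CPM in the controls, 33.1 to 42.7 in the single mutants and 32.2 to 42.9 in the double mutants, and Ralb did not either (adjusted p = 0.216 in RalAB cKO against control). Gene sums do not show whether a deleted exon is missing, so they do not check the genotype labels. Oligodendrocyte markers summed to 95938 to 124267 CPM in the controls, 112228 to 131863 in the single mutants and 100101 to 128245 in the double mutants, and all 13 were detected. The lymphocyte and granulocyte markers Elane, Ly6g, Cd3e and S100a9 were at 0 in all libraries. Control 1 and RalAB cKO 1 stood farthest from the other libraries of their groups over all genes. In these bulk samples a change in the number of cells of a type and a change in RNA per cell cannot be told apart.

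In RalAB cKO many of the early genes were higher. Against control 19 of the 36 tested genes rose and none fell, where 18.4% of all tested genes were called, 9.39% called higher and 9.02% called lower. The largest called increases were in Gadd45b, Atf3, Nfkbid, Egr3 and Btg2, and the median log2 fold change was 1.12 over the set beside -0.01 over all tested genes. Against RalA cKO 22 of 36 rose and none fell (11.5% of all genes called, 7.03% higher and 4.5% lower), with a median of 1.28 beside -0.03 over all genes. Without control 1 and RalAB cKO 1 together, an alternative chosen after seeing the data, 21 were called against control and 25 against RalA cKO. Over all genes that alternative called 3962 and 1868, beside 2478 and 1551 in the fit on 12 libraries. In 15 genes both differences passed the test. Both comparisons use the same RalAB cKO libraries, and the share of all genes called in both was not counted. All 4 RalAB cKO libraries lay above all 4 controls for 13 genes (36 tested, 9.88% of all genes) and above all 4 RalA cKO libraries for 24 genes (9.65% of all genes). For 0 genes of the set did they lie below all controls (9.34% of all genes) or below all RalA cKO libraries (7.63%).

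RalA cKO showed a different picture. Against control 1 gene rose, Arc, and 2 fell, Nr4a1 and Zfp36l1, where 2.78% of all genes were called. Without control 1 and RalAB cKO 1 together 7 genes of the set were called, but over all genes the calls rose from 374 to 1693. Estimates were negative for 30 of 36 genes, with a median of -0.52 beside -0.02 over all tested genes. Only 2 of these negative estimates passed the adjusted threshold. At an unadjusted p below 0.05 in the edgeR test 8 genes were lower and 3 higher. The share of all genes at that unadjusted level was not counted. Markers of some other cells, but not of all, were also low in RalA cKO. Astrocyte markers summed to 763 to 1113 CPM in RalA cKO beside 788 to 1083 CPM in control, and Schwann cell markers to 131 to 163 CPM beside 114 to 137 CPM. Reactive microglia and macrophage markers summed to 918 to 1199 CPM beside 822 to 1186 CPM. Summed endothelial markers were at 36.2 to 49.2 CPM in RalA cKO, below every control (57.01 to 93.6 CPM), neuron markers at 44.1 to 80.97 CPM beside 64.9 to 148 CPM, and microglia markers at 296 to 451 CPM beside 416 to 763 CPM. Median log2 fold changes were -0.98 over 9 endothelial, -1.19 over 9 neuron and -0.74 over 20 microglia markers. The edgeR test called 0, 0 and 3 of them lower, DESeq2 called 3, 1 and 9 lower, and 7, 5 and 16 were lower at an unadjusted p below 0.05. The part of these cells in the lower estimates for the early genes was not tested. All 4 RalA cKO libraries lay above all 4 controls for 2 genes, Csrnp1 and Arc (5.64% of all genes), and below them for 3, Nr4a1, Nr4a2 and Zfp36l1 (5.77%). The 2 mutant groups were compared with the same 4 control libraries, so their differences from control are not independent of each other. The comparison of RalAB cKO with RalA cKO does not use the controls for its group means.

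**Figure D1:**
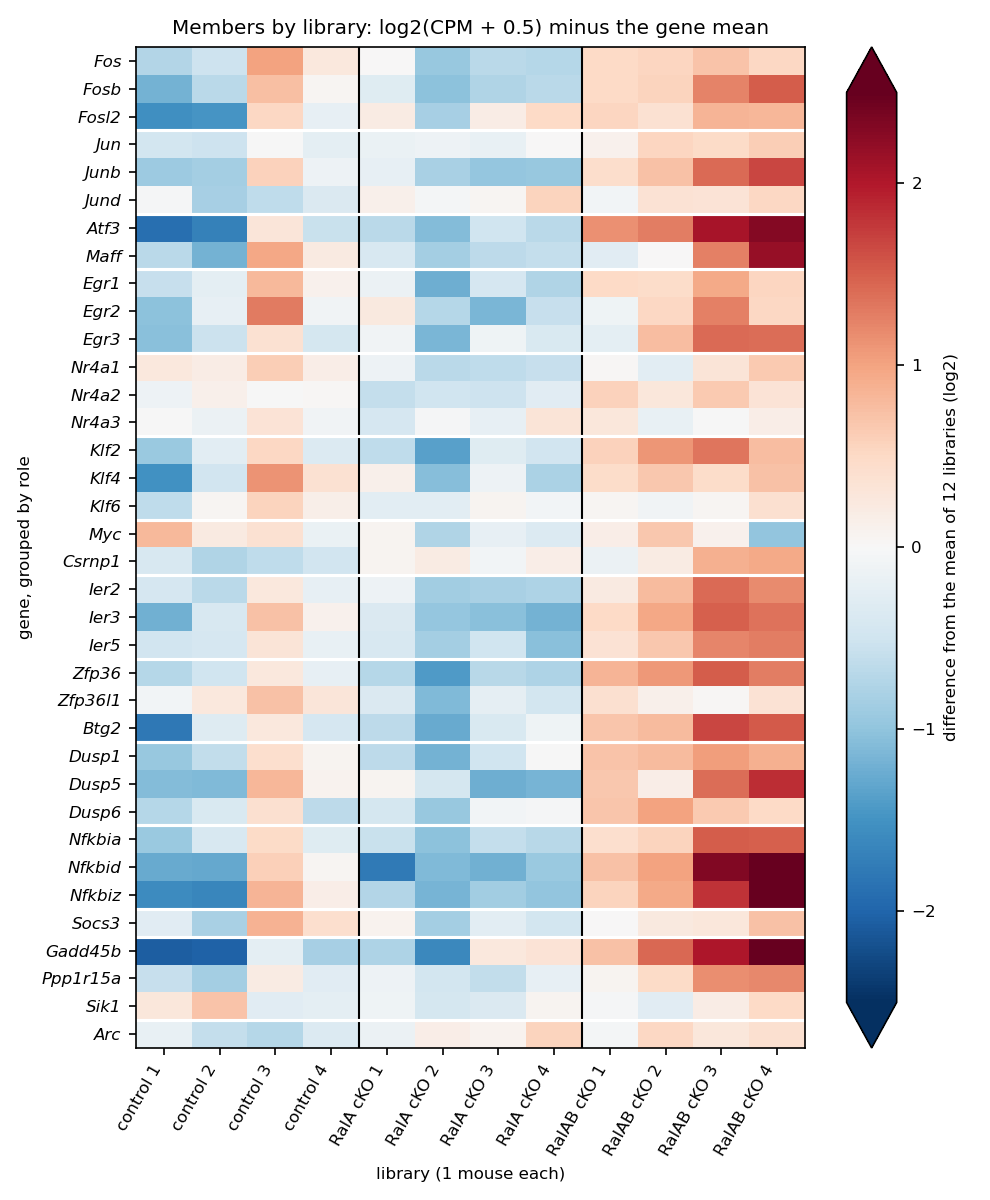
Level of each of the 36 tested genes (rows, grouped by role) in each of the 12 libraries (columns), as log2(CPM + 0.5) minus the mean of the gene over all libraries. The RalAB cKO columns are red for most genes, most of all mice 3 and 4, control 3 is the reddest control, and the rows of Jund, Sik1, Myc and Arc depart from the common pattern.

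**Figure D2:**
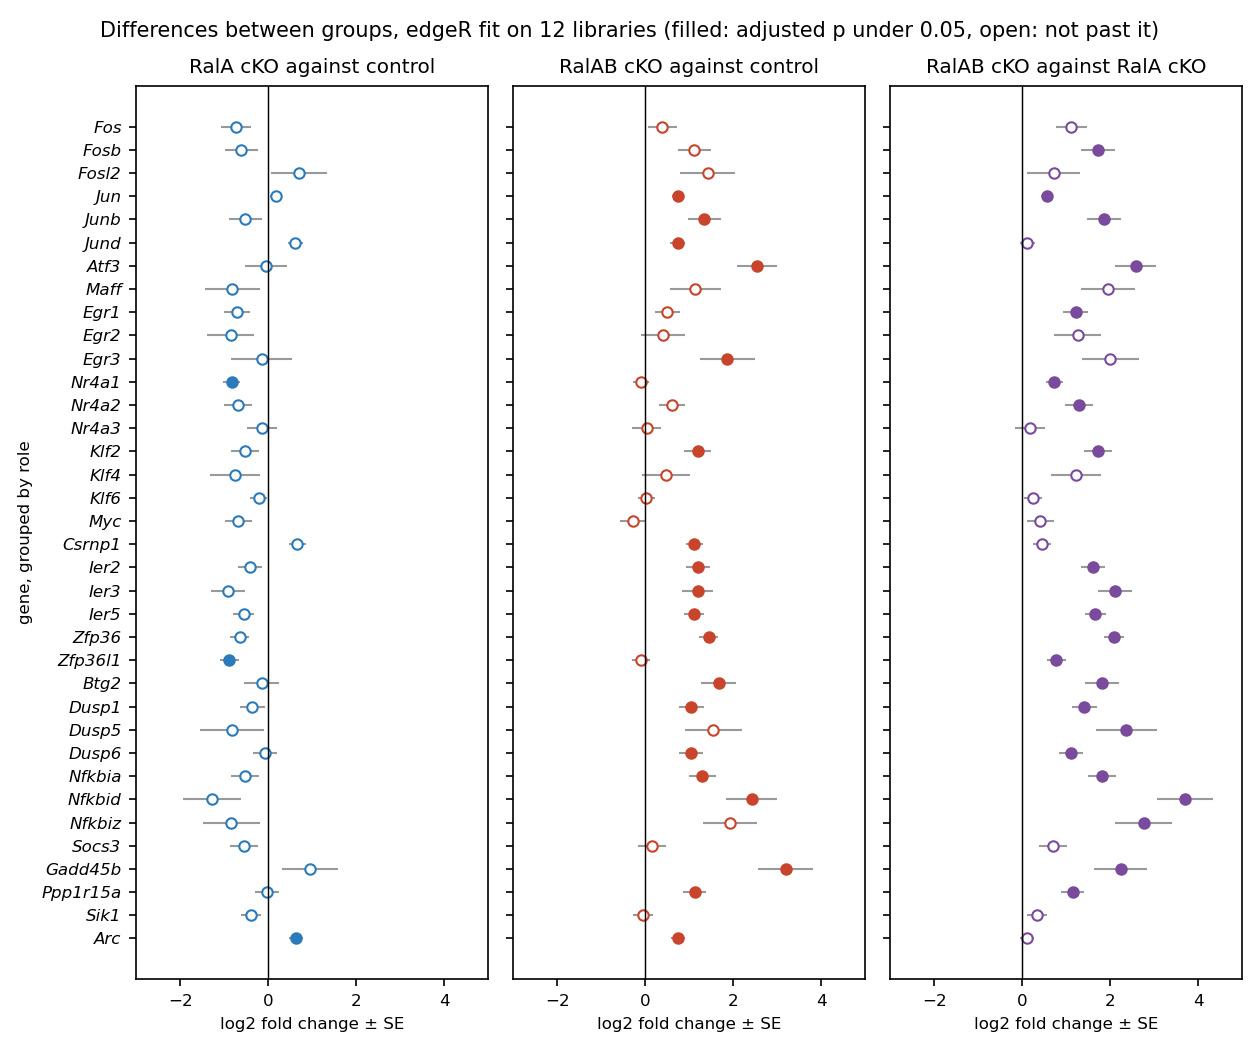
Log2 fold change (x axis) with its standard error for each tested gene (y axis) in the 3 comparisons of the edgeR fit, with filled points for an adjusted p under 0.05 and open points for the rest. Filled points lie right of 0 in both panels with RalAB cKO, while in RalA cKO against control 3 points are filled and most open ones lie left of 0.

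Promoters of 30 of the 38 genes were matched in RefSeq (GRCm38.p6), each from 250 bases before to 50 bases after a start site, and searched on both strands for the letters of elements through which early genes are classically induced. The CRE, TGACGTCA, to which CREB and ATF factors bind, was found in 5 of 30 genes (2.03% of all genes in the table), namely Btg2, Dusp1, Maff, Nfkbid and Ppp1r15a. The CArG box, the element of serum response factor, was found in 3 of 30 genes, Dusp5, Egr2 and Zfp36 (1.81% of all genes). A window is shown for each of these 8 genes. Of the 8, 5 (Btg2, Dusp1, Nfkbid, Ppp1r15a and Zfp36) rose in both comparisons with RalAB cKO, beside 15 of the 36 tested genes of the set. Dusp5 rose against RalA cKO, and Maff and Egr2 passed neither test. Whether the motifs bear on these calls was not tested. The motif is in capitals and each sequence runs 5′ to 3′ on the strand of its gene.
Btg2: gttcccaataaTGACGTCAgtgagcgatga
Dusp1: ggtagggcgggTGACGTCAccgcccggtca
Maff: ggctggggcggTGACGTCActgcatgactg
Nfkbid: cgttagcgccgTGACGTCAgcgcgcggcgt
Ppp1r15a: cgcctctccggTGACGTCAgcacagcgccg
Zfp36: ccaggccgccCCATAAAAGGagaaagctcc
Dusp5: ggggaaatacCCATATTTGGccttatatgg
Egr2: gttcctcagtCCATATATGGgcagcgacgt
The CRE of Btg2 lies in the window chr1:134079303-134079332 on the minus strand, 166 bases before the start site, that of Dusp1 at chr17:26508597-26508626 on the minus strand, 143 bases before the start site, and that of Maff at chr15:79347480-79347509 on the plus strand, 29 bases before the start site. For Nfkbid the window is chr7:30422344-30422373 on the plus strand, 51 bases before the start site, and for Ppp1r15a chr7:45526262-45526291 on the minus strand, 12 bases before the start site. The CArG windows are chr7:28379267-28379296 on the minus strand, 58 bases before the start site, for Zfp36, chr19:53529053-53529082 on the plus strand, 82 bases before the start site, for Dusp5, where a further CArG box follows directly, and chr10:67537787-67537816 on the plus strand, 72 bases before the start site, for Egr2. The AP-1 letters TGANTCA were found in 2 of 30 genes (Csrnp1 and Zfp36l1, 8.97% of all genes), TATAAA in 7 of 30 (15.7%) and the EGR motif in 8 of 30 (3.93%). The CRE letters do not contain the AP-1 letters. A match describes these bases and is not a measured binding site. Egr1, Egr3, Fosl1, Arc, Myc, Ier2, Nfkbiz and Sik1 were not matched.

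Among the FOS subunits of AP-1, which pair with JUN proteins to bind DNA, Fosb passed a test. Fosb read 8.32, 11.98, 32.9 and 20.1 CPM in controls 1 to 4, 15.6, 9.37, 11.3 and 11.96 CPM in the RalA cKO libraries and 27.8, 28.99, 46.8 and 56.4 CPM in the RalAB cKO libraries. All 4 RalAB cKO libraries were above all 4 RalA cKO libraries, with a log2 fold change of 1.73 ± 0.39 (SE, adjusted p = 0.0111), while control 3 reached into the RalAB cKO range and the difference from control was 1.12 ± 0.37 (SE, adjusted p = 0.0560). With all genes kept in the fit, without a count filter, the difference from RalA cKO had an adjusted p of 0.0512. Fos, the namesake of the family, did not pass. Fos read 31.8, 36.96, 107 and 63.7 CPM in controls 1 to 4, 53.4, 27.1, 32.8 and 32.02 CPM in the RalA cKO libraries and 74.98, 77.4, 87.2 and 76.2 CPM in the RalAB cKO libraries. Its RalAB cKO libraries were close together and above every RalA cKO library, but the controls ranged from below to above them, so the differences were 1.12 ± 0.34 (SE, adjusted p = 0.0586) from RalA cKO and 0.39 ± 0.34 (SE, adjusted p = 0.463) from control. Fosl2, at 0.131 to 2.80 CPM over the 12 libraries, passed no test. Fosl1 had 0 counts in all libraries, which allows up to 0.195 CPM in the deepest and 0.275 CPM in the shallowest.

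All 3 JUN subunits were higher in RalAB cKO than in control. Jun read 99.1, 95.2, 136 and 115 CPM in controls 1 to 4, 122, 125, 120.1 and 137 CPM in the RalA cKO libraries and 147, 198, 192 and 209 CPM in the RalAB cKO libraries. Every RalAB cKO library was above the other 8, and the difference was 0.74 ± 0.13 (SE, adjusted p = 0.000920) from control and 0.57 ± 0.13 (SE, adjusted p = 0.00727) from RalA cKO. Junb read 30.7, 32.4, 87.7 and 53.5 CPM in controls 1 to 4, 50.4, 33.1, 29.8 and 29.96 CPM in the RalA cKO libraries and 79.4, 97.01, 156 and 186 CPM in the RalAB cKO libraries. Junb in control 3 was above RalAB cKO 1, and the differences were 1.34 ± 0.37 (SE, adjusted p = 0.0292) from control and 1.86 ± 0.38 (SE, adjusted p = 0.00790) from RalA cKO. The Junb call against control ended without control 1, control 2, RalAB cKO 3 or RalAB cKO 4, with adjusted p from 0.0586 to 0.0818. Junb shares 173 exon bases with Prdx2 on the opposite strand, a gene of 88174 summed counts that passed no test, and whether the counting used strand is not stated in any source used. Jund, often the most constant JUN gene, followed a pattern that differed from those of Jun and Junb. Jund read 191, 108, 125 and 152 CPM in controls 1 to 4, 212, 188, 199.9 and 286 CPM in the RalA cKO libraries and 186, 250.5, 247 and 277 CPM in the RalAB cKO libraries. It was higher in RalAB cKO than in control by 0.74 ± 0.18 (SE, adjusted p = 0.00945), with control 1 inside the RalAB cKO range, and its difference between the 2 mutants was 0.12 ± 0.18 (SE, adjusted p = 0.770). In RalA cKO against control Jund missed the threshold at 0.62 ± 0.18 (SE, adjusted p = 0.0695). An antisense gene, Gm11175, shares 877 exon bases with Jund and had 91 summed counts.

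Atf3, a stress-induced repressor and partner of JUN, had one of the largest increases. Atf3 read 2.42, 2.86, 12.8 and 6.82 CPM in controls 1 to 4, 6.26, 4.60, 7.16 and 6.26 CPM in the RalA cKO libraries and 23.3, 25.6, 44.8 and 52.4 CPM in the RalAB cKO libraries. The lowest RalAB cKO library was above the highest of the other 8, control 3, and the group differences were 2.54 ± 0.46 (SE, adjusted p = 0.00289) from control and 2.59 ± 0.47 (SE, adjusted p = 0.00294) from RalA cKO. Maff, a small MAF protein that binds DNA but lacks an activation domain, was between 1.35 and 18.6 CPM, highest in RalAB cKO 4. All 4 RalAB cKO libraries were above the RalA cKO ones, but the difference did not pass, at 1.95 ± 0.61 (SE, adjusted p = 0.0579).

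Of the EGR zinc finger factors, which carry growth and activity signals to later genes, Egr1 and Egr3 each passed 1 test. Egr1 read 63.7, 80.7, 168 and 103 CPM in controls 1 to 4, 86.2, 40.6, 71.3 and 56.5 CPM in the RalA cKO libraries and 136, 132, 185 and 139 CPM in the RalAB cKO libraries. RalAB cKO libraries were all above the RalA cKO libraries, by 1.22 ± 0.29 (SE, adjusted p = 0.0148), and overlapped the controls, with a difference of 0.51 ± 0.28 (SE, adjusted p = 0.240). Without a count filter the difference from RalA cKO had an adjusted p of 0.0670. Egr3 read 0.131, 0.397, 1.19 and 0.455 CPM in controls 1 to 4, 0.715, 0.0884, 0.698 and 0.498 CPM in the RalA cKO libraries and 0.594, 1.71, 2.96 and 2.89 CPM in the RalAB cKO libraries. These are low levels, with 159 summed counts over the 12 libraries, and the RalAB cKO libraries overlapped the controls through mouse 1. The Egr3 difference from control was 1.86 ± 0.63 (SE, adjusted p = 0.0489) and that from RalA cKO 2.01 ± 0.64 (SE, adjusted p = 0.0557). The call ended without RalA cKO 1, RalA cKO 4, control 1, control 2, control 4, RalAB cKO 2, RalAB cKO 3 or RalAB cKO 4 (adjusted p from 0.0551 to 0.144). Egr2, the factor that drives myelination in Schwann cells, was at 1.05 to 7.94 CPM and passed no test. Egr4 had 10 summed counts in 4 libraries and was not tested.

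Of the NR4A receptors, nuclear receptors that are regulated by their amount and not by a ligand, Nr4a1 was lower in RalA cKO. Nr4a1 read 24.2, 22.7, 31.1 and 22.5 CPM in controls 1 to 4, 18.3, 12.3, 12.7 and 13.3 CPM in the RalA cKO libraries and 20.4, 16.5, 25.3 and 31.9 CPM in the RalAB cKO libraries. All 4 RalA cKO libraries were below all controls, with a log2 fold change of -0.83 ± 0.19 (SE, adjusted p = 0.0321). RalAB cKO was higher than RalA cKO by 0.73 ± 0.19 (SE, adjusted p = 0.0204), with RalA cKO 1 inside its range, and differed from control by -0.10 ± 0.19 (SE, adjusted p = 0.777). The lower level in RalA cKO was no longer called without RalA cKO 2, RalA cKO 3, RalA cKO 4, control 2, control 3 or control 4 (adjusted p from 0.0523 to 0.120) or with transcript length offsets (adjusted p = 0.0519), and the difference between the mutants was not called without RalA cKO 2, RalA cKO 4, RalAB cKO 3 or RalAB cKO 4 (adjusted p from 0.0569 to 0.0914). Nr4a2 read 1.18, 1.51, 1.31 and 1.36 CPM in controls 1 to 4, 0.715, 0.796, 0.786 and 0.996 CPM in the RalA cKO libraries and 2.23, 1.71, 2.40 and 1.83 CPM in the RalAB cKO libraries. The 3 groups of Nr4a2 did not overlap, with RalA cKO lowest and RalAB cKO highest, and the difference between the mutants passed, at 1.29 ± 0.31 (SE, adjusted p = 0.0116). That call was lost without a count filter, with an adjusted p of 0.0544, and with transcript length offsets, with 0.0586. Nr4a3 was between 0.894 and 1.88 CPM and passed no test.

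Klf2, a Krüppel-like factor best known in endothelium and in quiescent immune cells, rose. Klf2 read 3.01, 5.08, 9.06 and 4.82 CPM in controls 1 to 4, 3.84, 2.12, 4.98 and 4.34 CPM in the RalA cKO libraries and 9.50, 13.9, 16.4 and 11.03 CPM in the RalAB cKO libraries. Its RalAB cKO libraries were all above the other 8, by 1.20 ± 0.31 (SE, adjusted p = 0.0123) from control and 1.73 ± 0.32 (SE, adjusted p = 0.00145) from RalA cKO. Klf4 and Klf6, at 0.327 to 4.63 CPM and 15.39 to 35.8 CPM, passed no test. Csrnp1, a nuclear protein rich in cysteine and serine, was separated from control in both mutants. Csrnp1 read 21.8, 16.9, 18.3 and 20.5 CPM in controls 1 to 4, 30.03, 33.3, 27.5 and 32.5 CPM in the RalA cKO libraries and 25.8, 33.2, 53.6 and 56.2 CPM in the RalAB cKO libraries. The difference from control was 1.12 ± 0.20 (SE, adjusted p = 0.00141) in RalAB cKO and 0.67 ± 0.20 (SE, adjusted p = 0.0795) in RalA cKO, and the mutants differed by 0.45 ± 0.20 (SE, adjusted p = 0.182). Csrnp1 overlaps the microglial gene Cx3cr1 on the same strand, with 0 shared exon bases. Myc, the growth factor response gene, was highest in control 1 and lowest in RalAB cKO 4 (16.8 and 4.49 CPM) and passed no test.

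The 3 IER genes, early genes whose products are partly nuclear, all rose in both comparisons with RalAB cKO. Ier2 read 15.5, 12.8, 25.3 and 17.9 CPM in controls 1 to 4, 19.04, 11.1, 11.6 and 12.03 CPM in the RalA cKO libraries and 24.4, 36.2, 56.5 and 47.8 CPM in the RalAB cKO libraries. Ier2 in control 3 was slightly above RalAB cKO 1, and the differences were 1.20 ± 0.26 (SE, adjusted p = 0.00602) from control and 1.62 ± 0.27 (SE, adjusted p = 0.000960) from RalA cKO. Ier3 read 3.01, 5.63, 13.002 and 8.18 CPM in controls 1 to 4, 5.81, 3.63, 3.40 and 3.06 CPM in the RalA cKO libraries and 10.8, 15.35, 22.1 and 20.2 CPM in the RalAB cKO libraries. Ier3, an apoptosis regulator, again had control 3 inside the RalAB cKO range, with differences of 1.19 ± 0.36 (SE, adjusted p = 0.0324) and 2.11 ± 0.38 (SE, adjusted p = 0.00168). The Ier3 call against control ended without control 2, control 4, RalAB cKO 2, RalAB cKO 3 or RalAB cKO 4 (adjusted p from 0.0516 to 0.0905). Ier5 read 11.1, 11.6, 19.6 and 13.7 CPM in controls 1 to 4, 11.7, 8.49, 10.91 and 7.26 CPM in the RalA cKO libraries and 20.3, 25.2, 37.1 and 38.6 CPM in the RalAB cKO libraries. For Ier5 the RalAB cKO libraries were all above the other 8, by 1.11 ± 0.23 (SE, adjusted p = 0.00377) from control and 1.66 ± 0.24 (SE, adjusted p = 0.000203) from RalA cKO.

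Zfp36 encodes tristetraprolin, which binds AU-rich elements and sends cytokine and early gene mRNAs to decay, and it had the smallest adjusted p of the set. Zfp36 read 32.4, 37.8, 64.3 and 46.5 CPM in controls 1 to 4, 32.5, 19.7, 32.7 and 31.2 CPM in the RalA cKO libraries and 96.9, 114, 153 and 129.8 CPM in the RalAB cKO libraries. The lowest RalAB cKO library was above the highest control, and RalA cKO 2 was the lowest of the 12. The differences were 1.45 ± 0.21 (SE, adjusted p = 0.000420) from control and 2.09 ± 0.22 (SE, adjusted p = 2.6e-05) from RalA cKO. The 250 bases before its RefSeq start site (chr7:28379229-28379478, minus strand) are shown for their CArG box, in capitals.
Zfp36: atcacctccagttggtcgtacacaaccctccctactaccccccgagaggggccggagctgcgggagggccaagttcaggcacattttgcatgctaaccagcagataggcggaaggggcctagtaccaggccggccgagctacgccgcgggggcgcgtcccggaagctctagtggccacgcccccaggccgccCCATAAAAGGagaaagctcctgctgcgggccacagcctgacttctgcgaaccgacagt
Its relative Zfp36l1 was lower in RalA cKO. Zfp36l1 read 10.87, 13.96, 19.4 and 14.2 CPM in controls 1 to 4, 8.85, 5.04, 9.69 and 8.18 CPM in the RalA cKO libraries and 15.37, 12.6, 11.7 and 14.9 CPM in the RalAB cKO libraries. RalA cKO was below control, with a log2 fold change of -0.88 ± 0.21 (SE, adjusted p = 0.0362) and below RalAB cKO in every library, with a difference of 0.78 ± 0.21 (SE, adjusted p = 0.0226) between the mutants. RalAB cKO differed from control by -0.10 ± 0.21 (SE, adjusted p = 0.794). Zfp36l1 was not called against control without RalA cKO 2, RalA cKO 4, control 2, control 3, control 4 or RalAB cKO 2 (adjusted p from 0.0527 to 0.117), nor with the RalAB cKO libraries left out of the fit (adjusted p = 0.0589) or with transcript length offsets (adjusted p = 0.0961), and not between the mutants without RalA cKO 2, RalA cKO 4 or RalAB cKO 4 (adjusted p from 0.0523 to 0.0748) or with transcript length offsets (adjusted p = 0.378). Btg2, an antiproliferative factor that recruits the deadenylase complex, rose as well. Btg2 read 4.13, 12.4, 18.6 and 11.5 CPM in controls 1 to 4, 9.65, 6.19, 11.9 and 14.3 CPM in the RalA cKO libraries and 25.4, 27.2, 50.2 and 45.9 CPM in the RalAB cKO libraries. Every RalAB cKO library was above the other 8, by 1.67 ± 0.39 (SE, adjusted p = 0.0110) from control and 1.82 ± 0.40 (SE, adjusted p = 0.00924) from RalA cKO.

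The 3 MAP kinase phosphatases rose against RalA cKO, and Dusp1 and Dusp6 also against control. Dusp1 read 10.3, 13.2, 27.4 and 21.4 CPM in controls 1 to 4, 12.9, 8.75, 14.3 and 20.4 CPM in the RalA cKO libraries and 33.7, 35.6, 42.8 and 38.2 CPM in the RalAB cKO libraries. Dusp1, a nuclear phosphatase of p38 and JNK, had all 4 RalAB cKO libraries above the other 8, by 1.05 ± 0.28 (SE, adjusted p = 0.0175) from control and 1.41 ± 0.28 (SE, adjusted p = 0.00409) from RalA cKO. Dusp6 read 4.26, 5.47, 9.81 and 4.46 CPM in controls 1 to 4, 5.27, 3.54, 6.98 and 7.19 CPM in the RalA cKO libraries and 12.1, 15.2, 11.7 and 10.6 CPM in the RalAB cKO libraries. Dusp6, a cytoplasmic phosphatase of ERK, was likewise separate, by 1.04 ± 0.27 (SE, adjusted p = 0.0142) and 1.10 ± 0.27 (SE, adjusted p = 0.0133). Dusp5 read 0.327, 0.317, 2.63 and 1.36 CPM in controls 1 to 4, 1.34, 0.796, 0.262 and 0.285 CPM in the RalA cKO libraries and 2.30, 1.47, 4.16 and 5.86 CPM in the RalAB cKO libraries. Dusp5, a nuclear ERK phosphatase, had 275 summed counts and overlapped control, from which it differed by 1.55 ± 0.64 (SE, adjusted p = 0.107). It was above every RalA cKO library, by 2.37 ± 0.69 (SE, adjusted p = 0.0365). Calls close to the threshold were lost with single libraries: Dusp1 against control without RalAB cKO 3 (adjusted p = 0.0519), and Dusp6 without RalAB cKO 2 against control (adjusted p = 0.0516) and without RalA cKO 2 between the mutants (adjusted p = 0.0506). Dusp5 was not called without RalA cKO 2, RalA cKO 3, RalA cKO 4, control 4, RalAB cKO 3 or RalAB cKO 4 (adjusted p from 0.0509 to 0.123).

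The inhibitors of NF-kB and their nuclear relatives all rose against RalA cKO and were higher in RalAB cKO mice 3 and 4 than in mice 1 and 2. Nfkbia read 13.8, 19.99, 37.3 and 21.6 CPM in controls 1 to 4, 17.96, 12.9, 17.5 and 16.4 CPM in the RalA cKO libraries and 36.005, 39.4, 76.9 and 76.2 CPM in the RalAB cKO libraries. Nfkbia, the classical IkB alpha that NF-kB itself induces, overlapped control through control 3 and rose by 1.30 ± 0.31 (SE, adjusted p = 0.0112) from control and 1.82 ± 0.32 (SE, adjusted p = 0.00190) from RalA cKO. Nfkbid read 0.982, 0.952, 4.88 and 3.18 CPM in controls 1 to 4, 0.536, 1.15, 1.05 and 1.35 CPM in the RalA cKO libraries and 5.35, 6.61, 17.1 and 24.9 CPM in the RalAB cKO libraries. Nfkbid, a nuclear IkB protein, was separate from the other 8 libraries, by 2.42 ± 0.58 (SE, adjusted p = 0.0111) and 3.70 ± 0.64 (SE, adjusted p = 0.00174), the latter being the largest difference in the set. Without a count filter the Nfkbid difference from control had an adjusted p of 0.0508. Nfkbiz read 2.82, 2.70, 17.3 and 10.5 CPM in controls 1 to 4, 5.45, 3.89, 4.89 and 4.48 CPM in the RalA cKO libraries and 14.03, 18.6, 33.97 and 60.4 CPM in the RalAB cKO libraries. Nfkbiz, which co-activates secondary NF-kB targets, rose against RalA cKO by 2.76 ± 0.65 (SE, adjusted p = 0.0178) and missed the threshold against control at 1.92 ± 0.61 (SE, adjusted p = 0.0519). Its call was lost without RalA cKO 1, RalA cKO 2, RalA cKO 3 or RalA cKO 4 (adjusted p from 0.0519 to 0.0625). The bases before the Nfkbid start site (chr7:30422156-30422405, plus strand) are shown with the CRE in capitals.
Nfkbid: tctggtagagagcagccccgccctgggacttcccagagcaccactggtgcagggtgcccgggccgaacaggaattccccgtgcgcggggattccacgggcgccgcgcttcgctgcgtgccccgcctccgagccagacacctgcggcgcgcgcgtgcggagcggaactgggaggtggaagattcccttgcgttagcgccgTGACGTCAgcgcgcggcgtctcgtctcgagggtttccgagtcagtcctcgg

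Gadd45b, a stress-induced protein of growth arrest that NF-kB and TGF-beta signals switch on, had the largest increase over control. Gadd45b read 1.24, 1.27, 5.56 and 3.55 CPM in controls 1 to 4, 3.75, 1.86, 8.20 and 8.68 CPM in the RalA cKO libraries and 11.5, 19.1, 29.01 and 47.8 CPM in the RalAB cKO libraries. The lowest RalAB cKO library was above the highest of the other 8, RalA cKO 4, and the differences were 3.19 ± 0.64 (SE, adjusted p = 0.00551) from control and 2.24 ± 0.60 (SE, adjusted p = 0.0330) from RalA cKO. The difference between the mutants was not called without RalA cKO 1, RalA cKO 2, RalAB cKO 3 or RalAB cKO 4 (adjusted p from 0.0707 to 0.105). Ppp1r15a read 31.5, 25.9, 53.9 and 38.7 CPM in controls 1 to 4, 42.9, 33.8, 30.5 and 40.8 CPM in the RalA cKO libraries and 49.2, 65.2, 106 and 108 CPM in the RalAB cKO libraries. Ppp1r15a encodes GADD34, which restores translation after stress, and rose by 1.13 ± 0.26 (SE, adjusted p = 0.0101) from control, with control 3 inside the RalAB cKO range, and by 1.15 ± 0.27 (SE, adjusted p = 0.0117) from RalA cKO. Socs3, an inhibitor of cytokine receptors, ran from 5.04 to 17.9 CPM, and Sik1, a salt-inducible kinase that restrains CREB co-activators, from 11.1 to 25.4 CPM. Neither passed a test.

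Arc, a capsid-like synaptic effector known from neurons, did not follow most of the other genes. Arc read 89.4, 66.4, 61.6 and 79.6 CPM in controls 1 to 4, 91.4, 114, 108 and 149.7 CPM in the RalA cKO libraries and 98.3, 144, 123 and 133 CPM in the RalAB cKO libraries. Both mutants were above control in every library, RalA cKO by 0.64 ± 0.16 (SE, adjusted p = 0.0425) and RalAB cKO by 0.75 ± 0.16 (SE, adjusted p = 0.00416), and they differed from each other by 0.11 ± 0.16 (SE, adjusted p = 0.764). The increase in RalA cKO was not called without RalA cKO 2, RalA cKO 3, RalA cKO 4, control 2, control 3, control 4, RalAB cKO 2, RalAB cKO 3 or RalAB cKO 4 (adjusted p from 0.0537 to 0.165) or with the RalAB cKO libraries left out of the fit (adjusted p = 0.0506). The call in RalAB cKO was kept under each of 22 other analyses (other scaling, filters, tests and samples, and each library left out).

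**Figure D3:**
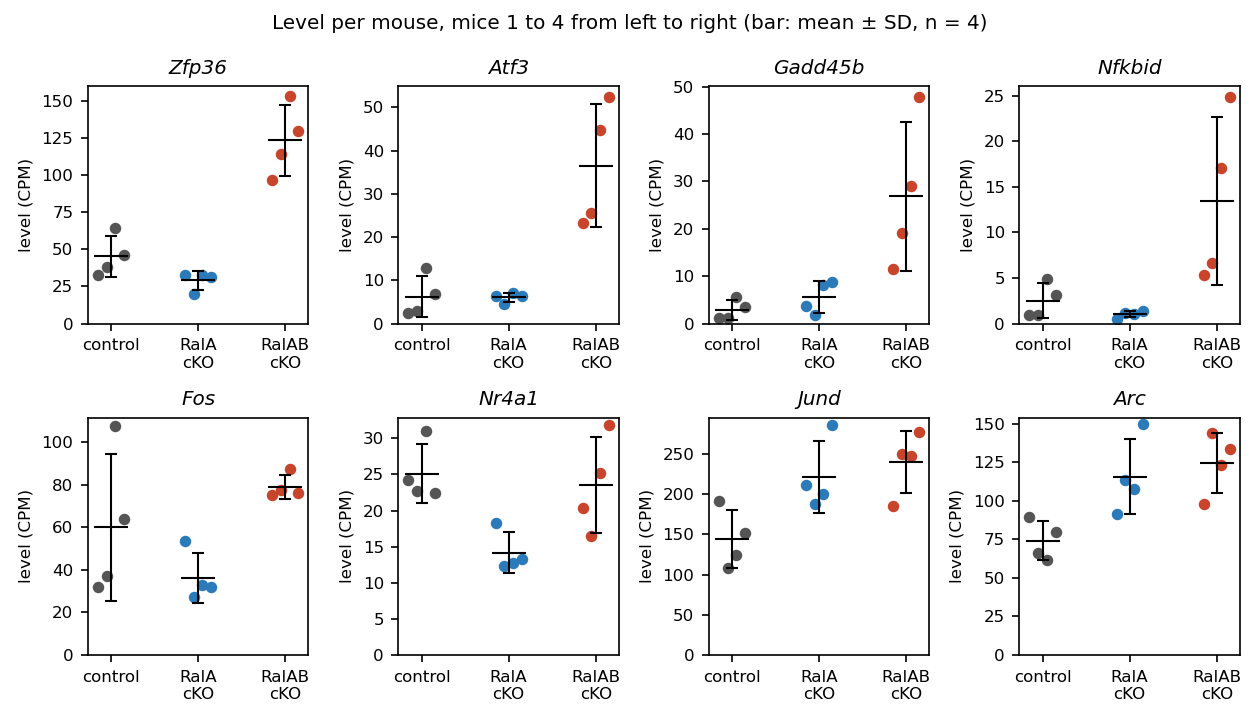
CPM (y axis, linear from 0) of 8 genes in each library, with mice 1 to 4 of a group from left to right and the bar giving mean ± SD of 4 mice. Zfp36, Atf3, Gadd45b and Nfkbid are separated in RalAB cKO, Fos overlaps because controls run from 31.8 to 107 CPM, Nr4a1 is low in RalA cKO, and Jund and Arc lie higher in both mutants than in most controls.

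Per kilobase of effective length, the scale on which genes can be compared, Jund was the most abundant of the set in the controls at 112 ± 27.3 CPM per kb (SD, n = 4). It was followed by Fos at 42.2 ± 27.6, Jun at 38.3 ± 6.40, Egr1 at 34.99 ± 15.1 and Junb at 34.01 ± 17.7, whose SDs overlap, so their order is not resolved. At the other end were Nr4a3 at 0.262 ± 0.0480, Egr3 at 0.236 ± 0.245 and Fosl2 at 0.189 ± 0.177 CPM per kb. In RalAB cKO Jund was at 186 ± 29.8, Junb at 85.6 ± 32.8 and Jun at 63.7 ± 9.04 CPM per kb. Gadd45b, ranked 26 of 38 in the controls at 2.75 ± 1.81, stood at 25.5 ± 14.4 CPM per kb in RalAB cKO.

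Within groups the genes moved together from mouse to mouse. After the group means were removed, the median Pearson correlation of log2 CPM over the 630 pairs of tested genes was 0.59 across the 12 libraries, beside -0.000925 over pairs of all tested genes, and 57.3% of pairs were above 0.5. These values describe libraries that share extraction and sorting of a whole cord, so depth and cell make-up are common to all genes of a library. Fosb (0.81) and Atf3 (0.80) had the highest median correlation with the other genes. The closest pair was Atf3 and Nfkbiz, at 0.97. A few genes stood outside: the medians of Myc, Arc and Sik1 were -0.27, -0.18 and -0.17. Arc and Jund, which both differ in level from the common pattern, correlated with each other at 0.83. The median was 0.82 among the 4 controls, 0.42 among the RalA cKO and 0.62 among the RalAB cKO libraries, and without control 3 it was 0.45.

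**Figure D4:**
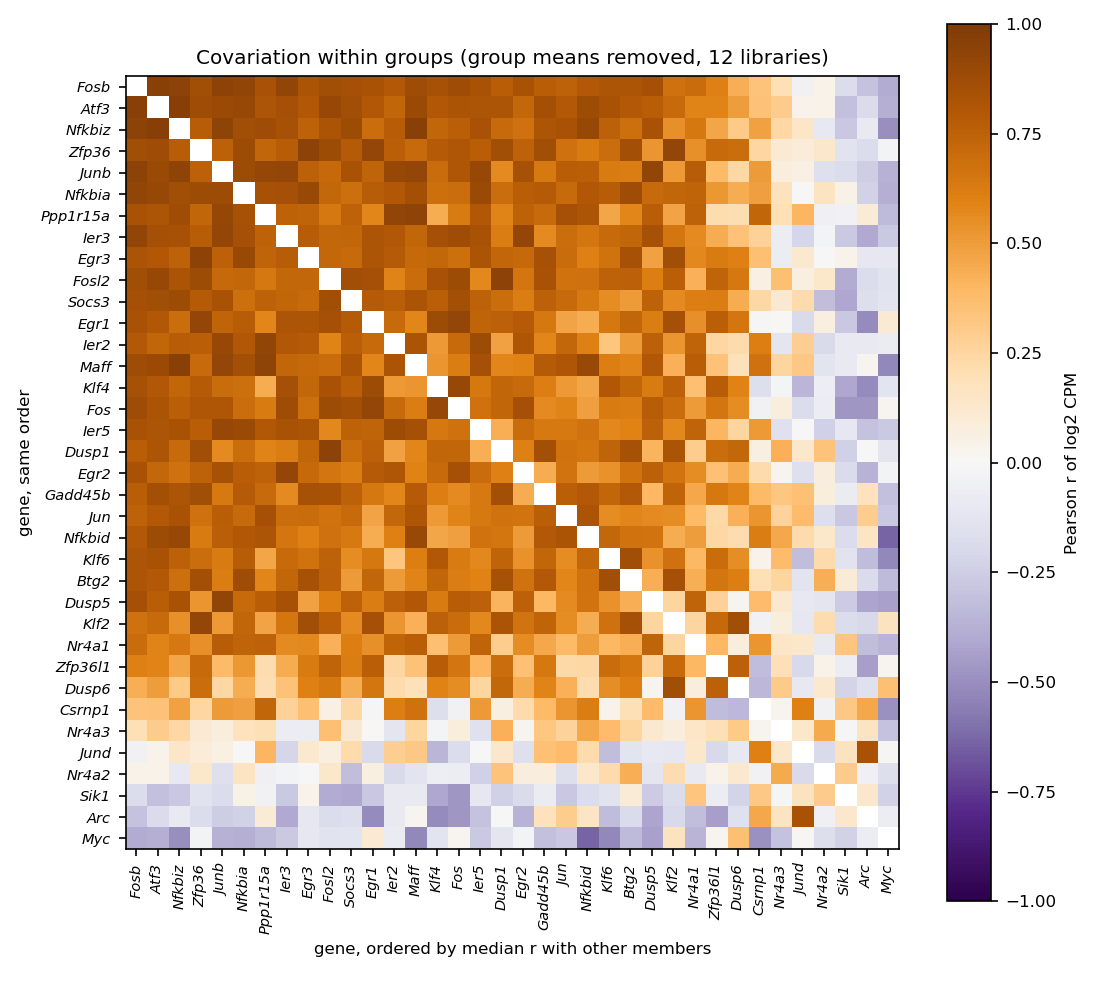
Pearson correlation (colour) between each pair of the 36 tested genes over 12 libraries after the group means were removed, with genes ordered on both axes by their median correlation with the others. Most of the matrix is brown (positive). Csrnp1, Nr4a3, Jund, Nr4a2, Sik1, Arc and Myc form an edge with many pale or purple cells, though Csrnp1 is brown with some genes (0.73 with Ppp1r15a). Among these edge genes Arc and Jund are the darkest pair.

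Control 3 carried much of the spread. It was the highest control for 30 of 36 genes, where it was highest for 29.6% of all tested genes, the exceptions being Jund, Nr4a2, Myc, Csrnp1, Sik1 and Arc. The mean log2 CPM of the 36 genes was 2.79, 2.98, 4.07 and 3.51 in controls 1 to 4, 3.30, 2.75, 3.14 and 3.20 in the RalA cKO libraries and 4.00, 4.21, 4.67 and 4.74 in the RalAB cKO libraries. Control 3 thus stood above RalAB cKO 1 on this mean and below the other RalAB cKO libraries. Control 3 was also the highest control for the summed neuron markers (80.95, 68.9, 148 and 64.9 CPM in controls 1 to 4), endothelial markers (60.9, 65.8, 93.6 and 57.01 CPM) and microglia markers (416, 625, 763 and 553 CPM). It was highest too for precursor, astrocyte, reactive microglia and macrophage, pericyte and fibroblast, and erythroid markers. For oligodendrocyte markers it was the lowest control (117985, 113223, 95938 and 124267 CPM in controls 1 to 4). The part of these cells in the result was not tested. Without control 3, 25 genes rose in RalAB cKO against control, among them Fos, Fosb, Fosl2, Egr1, Dusp5 and Nfkbiz, and in RalA cKO against control none was called. Over all genes 1958 and 154 were called in these comparisons.

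Within RalAB cKO, mice 3 and 4 were both above mice 1 and 2 for 25 of 36 genes, and for 23.6% of all tested genes. These pairs of mice follow their order in the mean log2 CPM of the same 36 genes (4.00, 4.21, 4.67 and 4.74). The count is therefore a description and not a test. Markers of microglia, the immune cells of the nervous system, differed between the groups in the same libraries. They summed to 416, 625, 763 and 553 CPM in controls 1 to 4, 386, 296, 451 and 414 CPM in the RalA cKO libraries and 1454, 1846, 2493 and 2524 CPM in the RalAB cKO libraries. Of 20 microglia markers 18 were higher in RalAB cKO than in control and 19 higher than in RalA cKO, and 3 were lower in RalA cKO than in control, with 16 at an unadjusted p below 0.05. Of 12 tested markers of reactive microglia and macrophages 11 were higher in each comparison with RalAB cKO, at summed levels of 822 to 1186 CPM in control, 918 to 1199 CPM in the single mutants and 1659 to 2840.3 CPM in the double mutants. None of the 20 microglia markers was at 0 in all libraries. Microglia express many of the early genes described here, and the part of microglial RNA in the increases was not tested.

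**Figure D5:**
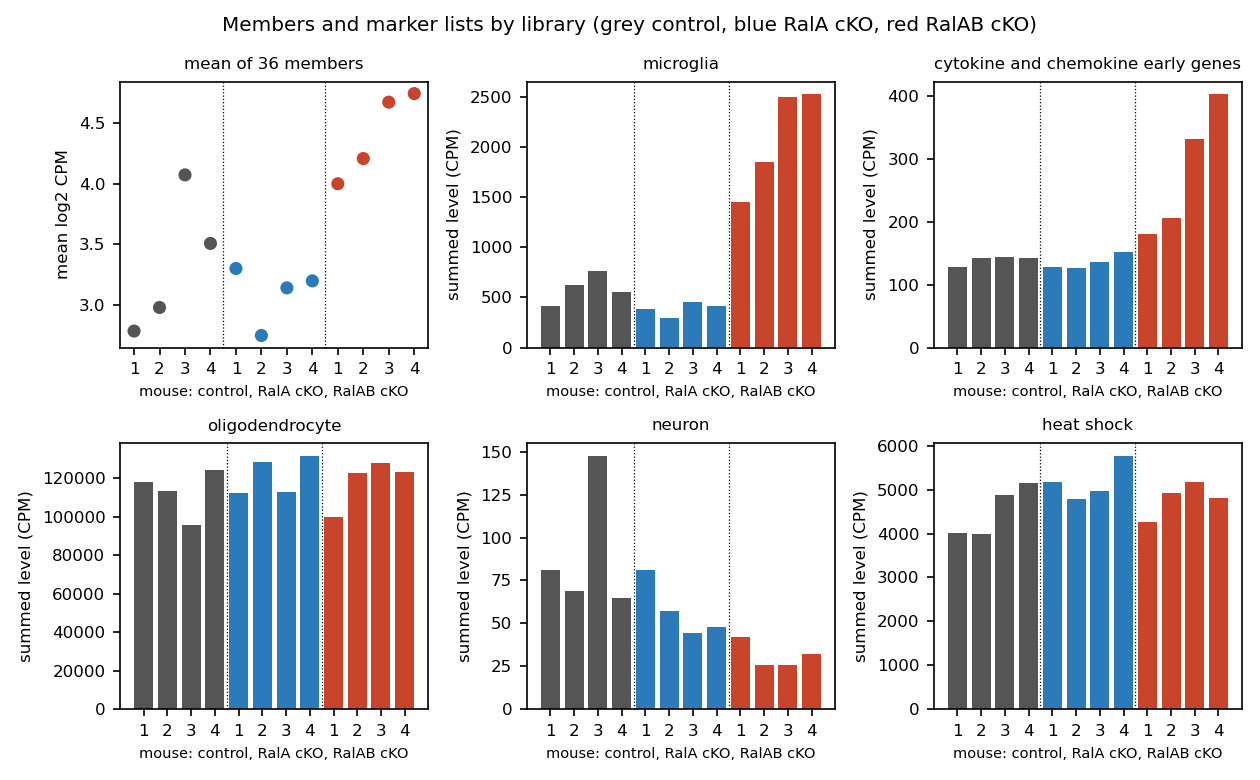
Mean log2 CPM of the 36 tested genes (first panel) and summed CPM of 5 gene lists (bars from 0) in mice 1 to 4 of control, RalA cKO and RalAB cKO. The gene mean, microglia markers and cytokine genes are high in RalAB cKO, above all in mice 3 and 4, whereas oligodendrocyte markers and heat shock genes show no such step and neuron markers peak in control 3.

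Markers of other cells moved in other ways, where 9.39% of all genes were called higher and 9.02% lower in RalAB cKO against control. Among oligodendrocyte precursor markers 6 of 10 fell in RalAB cKO against control, Pdgfra, the precursor growth factor receptor, with a log2 fold change of -1.99 ± 0.42 (SE, adjusted p = 0.00775). Among astrocyte markers 6 of 10 fell, and among neuron markers 3 of 9 tested fell, with sums of 25.5 to 41.8 CPM in RalAB cKO and 64.9 to 148 CPM in control. Oligodendrocyte markers gave 1 higher and 5 lower of 13, Mog, a late myelin protein, among the lower with -0.60 ± 0.13 (SE, adjusted p = 0.00473). Endothelial, pericyte and fibroblast, and ependymal markers gave no call in RalAB cKO against control by edgeR, with 1 at an unadjusted p below 0.05 among them and 0 calls by DESeq2. Schwann cell markers gave 2 higher of 7 tested and erythroid markers 1 lower of 5. Their part in the results for the early genes was not tested.

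Of 34 tested related early and secondary response genes outside the set, 3 rose and 2 fell in RalAB cKO against control, with a median of 0.09. This is near the background of 18.4% of all genes called. Cebpb, a factor of the acute phase response, rose by 2.25 ± 0.49 (SE, adjusted p = 0.00473) from control and 3.11 ± 0.54 (SE, adjusted p = 0.000822) from RalA cKO, at 0.589, 0.872, 1.63 and 0.273 CPM in the controls and 2.0044, 3.59, 3.68 and 7.30 CPM in RalAB cKO. Hbegf, a growth factor of the EGF family, fell by 1.14 ± 0.26 (SE, adjusted p = 0.00687) from control, and Per1, a clock gene with a CREB response, rose by 0.69 ± 0.17 (SE, adjusted p = 0.0108). Against RalA cKO 7 rose and none fell, where 7.03% of all genes were called higher and 4.5% lower. In that comparison Cited2, a CBP-binding co-regulator, was at 1.05 ± 0.23 (SE, adjusted p = 0.00564), and Trib1, a pseudokinase, at 1.47 ± 0.34 (SE, adjusted p = 0.00769). In RalA cKO against control 1 of 34 rose (1.71% of all genes called higher), Rhob, by 0.57 ± 0.14 (SE, adjusted p = 0.0470). That call was lost in 8 of the 12 fits that left out 1 library (adjusted p from 0.0612 to 0.172).

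Feedback regulators of MAP kinases beyond the 3 phosphatases gave calls in both directions. In RalAB cKO against control 5 of 21 rose and 6 fell (9.39% of all genes called higher and 9.02% lower). Dusp8, a JNK and p38 phosphatase, rose by 1.07 ± 0.15 (SE, adjusted p = 0.000210), Dusp10 by 0.97 ± 0.16 (SE, adjusted p = 0.000716) and Spred3, an inhibitor of Ras signalling, by 0.90 ± 0.15 (SE, adjusted p = 0.000922), while Lrig1, an inhibitor of receptor tyrosine kinases, fell, with a log2 fold change of -0.69 ± 0.13 (SE, adjusted p = 0.00221). Against RalA cKO 2 rose and 2 fell (7.03% of all genes called higher and 4.5% lower). Dusp2, an inducible nuclear phosphatase of immune cells, was at 3.37 ± 0.63 (SE, adjusted p = 0.00314) against RalA cKO. In RalA cKO against control 2 rose and none fell (1.71% of all genes called higher and 1.07% lower). Dusp10 rose by 0.86 ± 0.16 (SE, adjusted p = 0.0107) and Dusp8 by 0.62 ± 0.15 (SE, adjusted p = 0.0393). Dusp10 was not called without RalA cKO 4 or control 2 (adjusted p from 0.0516 to 0.0560), and Dusp8 was lost in 9 of the 12 fits that left out 1 library (adjusted p from 0.0523 to 0.156). Of 36 upstream kinases and transcription factors of the MAP kinase, SRF and CREB routes, 4 rose and 4 fell in RalAB cKO against control, near the 18.4% of all genes called, with Rps6ka1, a ribosomal S6 kinase, at 1.01 ± 0.18 (SE, adjusted p = 0.00117). Against RalA cKO 3 rose and 1 fell, beside 11.5% of all genes called. Elk3, a partner of serum response factor, rose by 1.99 ± 0.33 (SE, adjusted p = 0.000622). In RalA cKO against control none was called by edgeR, with 2 higher and 6 lower at an unadjusted p below 0.05 and 2 lower by DESeq2.

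NF-kB subunits and regulators outside the set rose without exception where they were called. In RalAB cKO against control 5 of 18 rose (9.39% of all genes called higher), with a median of 0.50. Against RalA cKO 4 of 18 rose (7.03% of all genes called higher). Tnip1, a partner of the ubiquitin editor A20, rose by 0.76 ± 0.16 (SE, adjusted p = 0.00346), and Nfkb2, a subunit of the alternative pathway, by 0.73 ± 0.18 (SE, adjusted p = 0.00933). Tnfaip3, which encodes A20 itself, rose by 3.46 ± 0.76 (SE, adjusted p = 0.0122) against RalA cKO. In RalA cKO against control none was called by edgeR, with 1 higher and 1 lower at an unadjusted p below 0.05 and 1 higher by DESeq2. Most cytokine and chemokine early genes rose. Of 11 tested, 7 rose against control and 9 against RalA cKO (9.39% and 7.03% of all genes called higher). The medians were 2.64 and 3.72, and Il10 was at 0 in all libraries. Their summed level was 129, 143, 143 and 143 CPM in controls 1 to 4 and 181, 206, 332 and 403 CPM in RalAB cKO 1 to 4, where mice 3 and 4 were again the highest. Cd14, a myeloid receptor for lipopolysaccharide, rose by 4.47 ± 0.42 (SE, adjusted p = 1.52e-05) from control, Osm, a cytokine of the IL-6 family, by 2.64 ± 0.50 (SE, adjusted p = 0.00193), and Ccl4, a chemokine, by 3.06 ± 0.55 (SE, adjusted p = 0.00209). In RalA cKO against control none was called by edgeR, with 0 at an unadjusted p below 0.05 and 0 by DESeq2.

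Genes of heat shock and of glucocorticoid response also react to handling. Of 18 heat shock genes 1 rose in RalAB cKO against control (9.39% of all genes called higher), Hspa1a, an inducible HSP70, by 1.34 ± 0.38 (SE, adjusted p = 0.0230). The list summed to 3981 to 5149 CPM in control, 4786 to 5776 in the single mutants and 4256 to 5181 in the double mutants. Hspa1a was not called without control 1, control 2, control 4, RalAB cKO 3 or RalAB cKO 4 (adjusted p from 0.0524 to 0.104). In RalAB cKO against RalA cKO, 2 heat shock genes rose and 1 fell (7.03% of all genes called higher and 4.5% lower). In RalA cKO against control 2 of 18 rose (1.71% of all genes called higher). They were Cryab, by 0.68 ± 0.16 (SE, adjusted p = 0.0293), and Bag3, by 1.10 ± 0.26 (SE, adjusted p = 0.0322). Cryab was not called without RalA cKO 2, RalA cKO 4, control 2 or control 3 (adjusted p from 0.0530 to 0.125), and Bag3 not without RalA cKO 1, RalA cKO 4, control 2 or control 3 (adjusted p from 0.0592 to 0.114). Of 12 glucocorticoid response genes 4 rose and 2 fell in RalAB cKO against control, beside 18.4% of all genes called in either direction. The median log2 fold change over these 12 genes was -0.15. Their summed level was 807 to 1165 CPM in the double mutants, above every control (542 to 691 CPM) and every single mutant (571 to 801 CPM). Their part in the results for the early genes was not tested. The metallothioneins Mt1 and Mt2 rose by 2.29 ± 0.23 (SE, adjusted p = 2.31e-05) and 2.40 ± 0.26 (SE, adjusted p = 6.2e-05), while the receptor co-chaperone Fkbp5 was at -0.70 ± 0.15 (SE, adjusted p = 0.00456) and Tsc22d3, a glucocorticoid-induced leucine zipper protein, at -0.52 ± 0.11 (SE, adjusted p = 0.00477), both lower. In RalAB cKO against RalA cKO, 2 of the 12 glucocorticoid response genes rose and 1 fell (11.5% of all genes called). In RalA cKO against control 1 of the 12 fell and none rose (2.78% of all genes called).

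Among genes of the set with a mean of at least 50 counts, 15 had at least 2 transcripts that each held over 5% of the estimated counts. For Zfp36, the transcript Zfp36-202 held 60.7, 71.5, 76.96 and 54.4% in controls 1 to 4, 65.6, 73.6, 79.996 and 61.1% in RalA cKO and 67.8, 73.9, 79.8 and 63.1% in RalAB cKO, with groups that overlapped. From high to low the mice ran 3, 2, 1 and 4 in each group. The retained-intron transcript of Nfkbia held 17.6, 11.9, 23.3 and 17.1% in the controls and 20.5, 25.3, 21.6 and 22.9% in RalAB cKO, again overlapping. Atf3 counts were assigned to Atf3-203 for 92.8% in control 1 and 81.99% in control 2, the controls with the fewest Atf3 counts, and to Atf3-201 for most counts in each of the other libraries. Nr4a1-202 held 43.999, 32.7, 0 and 63.4% in RalA cKO and 9.80, 9.20, 0 and 0% in RalAB cKO, and was at 0 in 2 libraries of control and in 2 of RalAB cKO. These shares are estimates from reads that fit several transcripts, and no test was made on them.

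Across the 22 alternatives run as a check, 13 of the 19 calls in RalAB cKO against control were kept in every one (Jun, Jund, Atf3, Klf2, Csrnp1, Ier2, Ier5, Zfp36, Btg2, Nfkbia, Gadd45b, Ppp1r15a and Arc), as were 12 of 22 against RalA cKO (Jun, Junb, Atf3, Klf2, Ier2, Ier3, Ier5, Zfp36, Btg2, Dusp1, Nfkbia and Nfkbid). Without a count filter the calls of Junb, Ier3, Dusp1 and Nfkbid against control and of Fosb, Egr1, Nr4a2, Dusp5, Nfkbiz, Gadd45b and Ppp1r15a against RalA cKO were lost. With transcript length offsets those of Egr3 and Dusp6 against control and of Nr4a2, Zfp36l1 and Ppp1r15a against RalA cKO were lost. Against control, library totals alone lost Egr3 and Ier3, limma-voom lost Egr3, and a fit of only the groups compared lost Junb and Ier3. Of the 3 calls in RalA cKO against control none was kept in every one. No called gene of the set changed direction under any alternative run.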

How the data were processed

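Each of the 12 deposited files, 1 per library, gave estimated counts, TPM values and effective lengths per transcript, as the authors' quantification left them. Per the submitters' processing notes, Trimmomatic 0.36, kallisto 0.44 and GRCm38.p6 were used. The role of each tool and the strand setting are not given in the sources used here. Per the labels' protocols, the kits were Trizol for RNA and TruSeq Stranded mRNA for libraries.

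The authors' estimated counts were the only values tested. Of 121843 transcripts, 121104 matched GENCODE annotation and were summed to 35675 genes and rounded to whole numbers; the unmatched held 0.219% to 0.277% of counts. edgeR 4.0.16 (R 4.3.3) used TMM scaling, filterByExpr at a count minimum of 10, and the robust quasi-likelihood F test with group means over all 12 libraries, adjusted by the Benjamini-Hochberg method. The procedure was tested on simulated data. The deposited TPM values served only to weight the deposited effective lengths within a gene, for CPM per kb and for 1 alternative with length offsets. Log2 CPM for correlations used a prior count of 2. Alternatives used DESeq2 1.42.0 and limma 3.58.1.

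The depth of 10.93 to 15.44 M counts (1 M is 1000000) per library sets the precision of low genes: 3 counts are 0.195 to 0.275 CPM. Libraries of a group were compared by a chi-square on genes holding 20 or more counts in sum, and in all 18 pairs it was at least 9.09 times its degrees of freedom, so none was counted as a duplicate. The labels say that the mice were separate. Genes were named by a rule: values in every library for each gene called in any comparison, ranges for the rest, and up to 4 called genes of smallest p per pathway list. Fos, which was not called, is given in full too and was chosen after its values were seen. The genes and lists were chosen with earlier results of these data known.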

Additional observations from a re-analysis of the deposited data

Results flagged for a closer look

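In 5 of 108 groups of 4 libraries (4.63%) 1 library lay far from the other 3 by Dixon's ratio of gap to range, where chance gives about 1 in 20. RalA cKO 1 was high for Junb (50.4 CPM, the nearest other 33.1), for Nr4a1 (18.3 CPM, the nearest 13.3) and for Ier2 (19.04 CPM, the nearest 12.03). RalAB cKO 3 was high for Egr1 at 185 CPM, where the next library was at 139. RalA cKO 2 was low for Zfp36 at 19.7 CPM, where the next was at 31.2. Without RalA cKO 1 the lower Nr4a1 level in RalA cKO against control stayed called.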

How the results depend on the processing

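A set of 22 other analyses changed the scaling, the count filter, the test, the samples in the fit, the pairing and the length correction, or left out each library in turn. Against 3 genes called in RalA cKO against control there were 0 to 6 with 1 library left out: none without RalA cKO 2 or 4 or without control 2, 3 or 4, 1 without RalA cKO 3 or RalAB cKO 2, 5 without RalAB cKO 1 and 6 without control 1. Over all genes the fits with 1 library left out called 85 to 947, beside 374 in the fit on all libraries. DESeq2 called 6 and limma-voom with sample quality weights 6 (each adding Csrnp1, Jund and Zfp36), with 1083 and 1789 over all genes. Transcript length offsets left 1 (Arc). Leaving out control 1 and RalAB cKO 1 together, an alternative chosen after seeing the data, gave 7, with 1693 over all genes. In RalAB cKO against control the count was 15 to 25 with 1 library left out and 15 to 22 otherwise, and against RalA cKO 16 to 25 and 16 to 27, all within 1.5 times the 19 and 22 reported. Leaving out the count filter gave 15 and 16. The median correlation within groups ranged from 0.45 to 0.63 with 1 library left out and was 0.59 with a prior count of 0.5. Mapk10, a neuronal JNK kinase called lower in RalAB cKO against control at -0.72, was at 0.016 with transcript length offsets, and the cause was not tested.

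Over all tested genes the mouse numbers gave no sign of pairing. Correlations of same-numbered libraries ran from -0.20 to 0.18, with 3 of 12 above 0.1, and the best match carried the same number in 5 of 24 checks. The share of the transcript Zfp36-202, however, had the same order of mouse numbers in all 3 groups. The labels do not state whether equal numbers share a litter or day, and this was not tested. With mouse number as a replicate block the calls were 1 (Nr4a1), 22 and 22 in the 3 comparisons. Zfp36l1 (adjusted p = 0.0536) and Arc (adjusted p = 0.0623) in RalA cKO against control were not called with the block, nor was Dusp5 between the mutants.

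With 4 mice per group, p-values rest on a spread estimated from few animals, and genes of few counts such as Egr3, Fosl2, Dusp5 and Nr4a2 are imprecise. Cell make-up, sorting and handling of each cord were not measured apart from the marker lists.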
